A study of Mus musculus with 2 samples.

Results

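The genes described here encode the subunits of respiratory chain complexes I to V, measured in mouse embryonic stem cells (ESCs) labelled as overexpressing HDAC6 and in wild-type (WT) ESCs. They were chosen by gene name: all names starting with Nduf for complex I, Sdha to Sdhd for complex II, Uqcr names and Cyc1 for complex III, Cox4 to Cox8 names for complex IV and Atp5 names for complex V. Pseudogenes were left out (19 with such a name), and the Ndufaf assembly factors were kept apart. The rule found 89 genes, of which 86 had a probe paired with them and 85 were tested, among 16077 tested genes in all. Ndufb1, Ndufb4b and Ndufb4c had no paired probe, and Cox8b was not well above background in either channel. The tested genes were 38 of complex I, 4 of complex II, 9 of complex III, 17 of complex IV and 17 of complex V.

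Mitochondria make most of a resting cell's ATP by passing electrons from NADH (at complex I) and succinate (at complex II) through ubiquinone, complex III and cytochrome c to oxygen at complex IV. Complexes I, III and IV pump protons across the inner membrane, and complex V, the ATP synthase, uses the returning protons to make ATP. A small part of the subunits is encoded by mitochondrial DNA, and the nuclear genes measured here encode the rest. ESCs are known for a glycolytic metabolism beside an active respiratory chain, and several complex IV subunits exist as a broadly expressed form and as a form restricted to muscle, lung, testis or low oxygen.

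Overexpressing and WT ESCs were of the strain B6C3F1 and at passage 26, and were grown with LIF on mitomycin C treated embryonic fibroblasts. RNA of HDAC6 overexpression ESCs carried Cy5 and RNA of WT ESCs carried Cy3 on each of 2 Agilent arrays, called biological replicates 1 and 2 by the labels. How HDAC6 was introduced, and whether the cells were 1 clone, is not given in the sources used here. The arrays share 1 dye orientation, so a dye effect and the effect of the label cannot be told apart, and p-values measure only the spread between these 2 arrays, which may be technical. Each log2 ratio is the Cy5 over the Cy3 processed signal, overexpression over WT, given as the mean of both arrays ± SD (n = 2). Hdac6 itself had log2 ratios of 0.16 and -0.038 on replicates 1 and 2 (limma adjusted p = 0.64). With normexp background correction and loess its mean was 0.046. Under a scaling by the array median alone, which left the brightest 10% of all genes at a median of 0.53, Hdac6 had 0.52 (limma adjusted p = 0.0011). Whether its probes can detect the introduced HDAC6 is not given in the sources used here, so they do not check the labels, and directions refer to the channels as labelled. All 10 ESC markers examined were well above background in both channels, and 4 of them were called higher and 3 lower. Of 20 fibroblast markers, relevant because of the feeder layer, 19 were higher and 0 lower, with summed signals of 294379 and 383068 in the overexpression channel and 166162 and 146416 in WT. Primitive endoderm markers were higher for 18 of 19 genes and lower for 1, with summed signals of 213804 and 222625 in the overexpression channel and 36012 and 40695 in WT. The part of these cell types in the results below was not tested, and in such bulk RNA fewer cells of a type and less RNA per cell cannot be told apart.

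Most subunit genes differed little between the overexpressing and WT ESCs. Of the 85 genes, 11 were higher and 18 lower at a limma adjusted p under 0.05, and 56 were not called. Over all tested genes 21.2% were called higher and 29.9% lower (51.1% in either direction), so the subunit genes' 12.9% higher and 21.2% lower are below the shares of the array as a whole. The log2 ratios of 79 of the 85 lay within 1.5-fold of no difference, and 4 genes were at least 1.5-fold changed on both arrays, 2 of them higher (Cox6b1 and Cox6b2) and 2 lower (Cox7b2 and Cox4i2), against 7.87% of all genes higher and 12.6% lower by that rule. All 4 belong to complex IV, the terminal oxidase. The median log2 ratio was 0.0049 over the subunit genes and -0.061 over all genes.

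**Figure D1:**
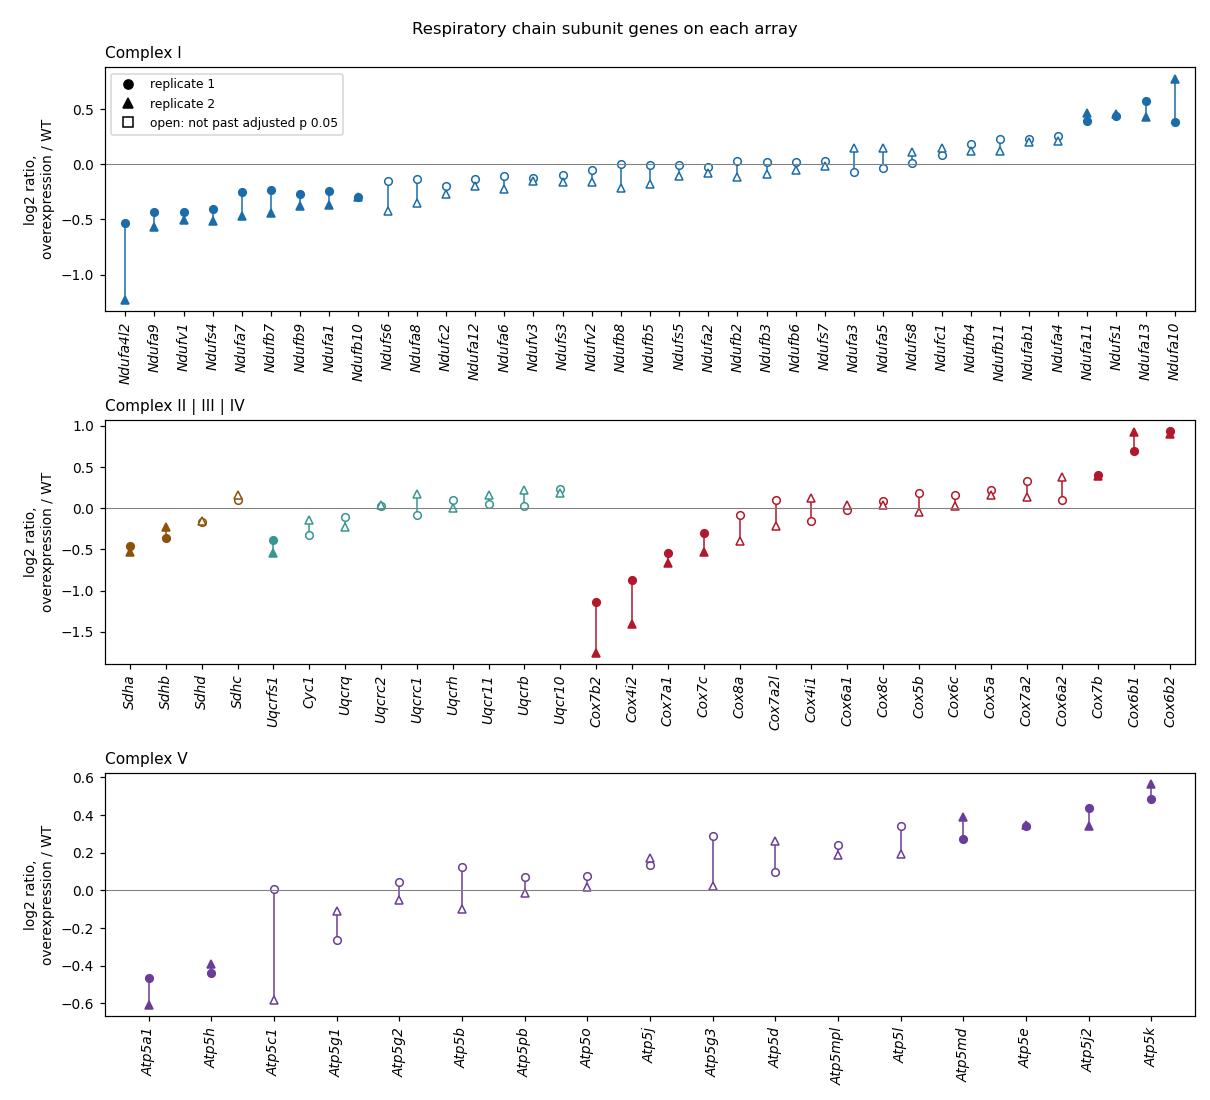
Log2 ratio of overexpression over WT (vertical axis) of the tested subunit genes (horizontal axis; 1 gene is not shown) on replicate 1 (circles) and replicate 2 (triangles), by complex; filled symbols passed limma's adjusted p of 0.05. Most genes lie near 0, while Cox7b2 and Cox4i2 are at least 1.5-fold lower and Cox6b1 and Cox6b2 at least 1.5-fold higher on both arrays.

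These sizes changed with the scaling of the arrays. The subunit probes are bright, since of the 85 genes 52 had a probe in the brightest 10% of the tested genes and 80 a probe at or above the median brightness. The lowess step of Feature Extraction, which takes out ratio changes that follow spot brightness, left the brightest 10% of all genes at a median log2 ratio of -0.068. With normexp background correction and the array median as the only scaling, those brightest genes had a median of 0.53, and the subunit genes had 0.46, with 61 called higher and 5 lower against 30.3% and 29.9% of all genes. The median of all genes moved only to 0.0085 under that scaling. With normexp and loess, 19 subunit genes were higher and 15 lower, against 22.1% and 34.5% of all genes. Called in the same direction under all 3 scalings were 16 genes, 11 higher and 5 lower, against 18.7% and 24.8% of all genes. With the array median only, 46 of the 54 subunit genes in its brightest 10% were called higher and 0 lower. Bright genes thus passed all 3 scalings more readily when higher than when lower. The 3 scalings are not independent support, and this split cannot be read apart from brightness. The higher ones were Ndufa11, Ndufs1, Ndufa13, Ndufa10, Cox7b, Cox6b1, Cox6b2, Atp5md, Atp5e, Atp5j2 and Atp5k, and the lower ones Ndufa4l2, Uqcrfs1, Cox7b2, Cox4i2 and Cox7a1.

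**Figure D2:**
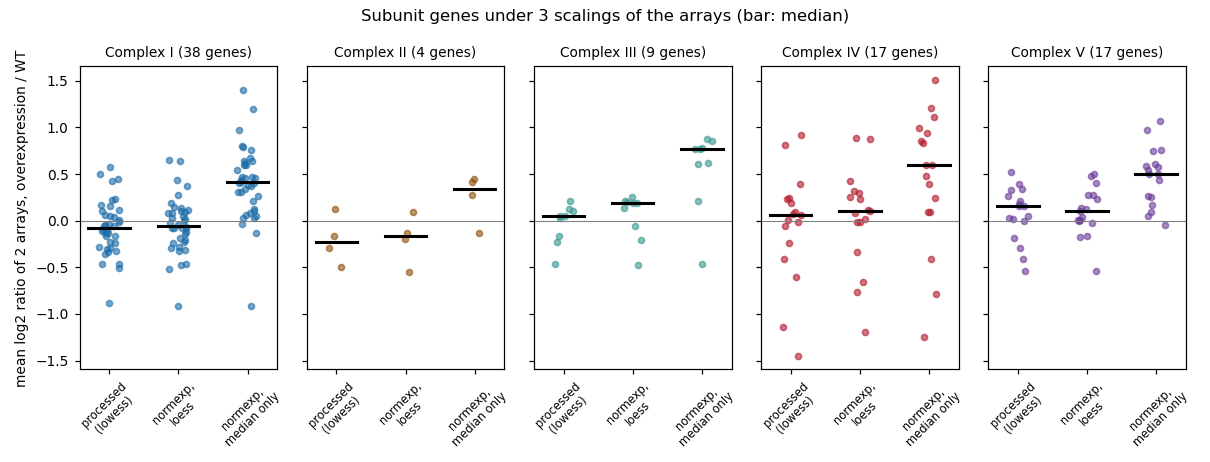
Mean log2 ratio of overexpression over WT (vertical axis) of the subunit genes of each complex under 3 scalings of the arrays (horizontal axis), with 1 point per gene and a bar at the median. The complex III median, for example, was 0.045 with the processed signals, 0.19 with normexp and loess and 0.77 with normexp and the array median only.

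Complex IV held the widest range of log2 ratios, from -1.45 to 0.92, with an SD of 0.60 between its genes against 0.30 in complex I, 0.26 in complex II, 0.21 in complex III and 0.29 in complex V. The low end of this range came from Cox7b2 and Cox4i2, whose probes were dim. In complex IV 13 of 17 genes had a probe at or above the median brightness, against 16 of 17 in complex V and all in the others. Of its 17 genes 3 were higher and 4 lower (17.6% and 23.5%, against 21.2% and 29.9% over all genes). The highest were Cox6b2 and Cox6b1, which encode the testis-restricted and the broadly expressed form of the subunit that lies on the intermembrane side and bridges the monomers of the enzyme. Cox6b2 had signals of 17546 and 18771 on replicates 1 and 2 in the overexpression channel, against 9174 and 10033 in WT. Cox6b1 had 28966 and 33393 in the overexpression channel, against 17823 and 17616 in WT. For both genes each overexpression value lay above each WT value, but how many of all genes show such a separation was not counted. Cox6b2 rose 1.89-fold (log2 ratio 0.92 ± 0.022, limma adjusted p = 0.00098) and Cox6b1 rose 1.76-fold (0.81 ± 0.16, adjusted p = 0.0020).

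The largest fall was that of Cox7b2, a testis-enriched form of subunit VIIb, whose broadly expressed form is Cox7b. Cox7b2 had signals of 193 and 129 in the overexpression channel, against 426 and 436 in WT, and fell 2.73-fold (log2 ratio -1.45 ± 0.43, limma adjusted p = 0.0013). This probe was dim, and the fall was smaller under the other scalings, with -1.19 for normexp and loess and -1.25 for the array median only. Cox7b had 21243 and 23065 in the overexpression channel, against 16094 and 17591 in WT, and rose 1.32-fold (0.40 ± 0.0068, adjusted p = 0.015). The forms of this subunit thus went opposite ways, with a difference in log2 ratio of -1.54 on replicate 1 and -2.14 on replicate 2.

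The start regions of these 4 genes are shown because they contrast a pair that rose together with a pair that parted. Each window, from RefSeq on GRCm38.p6, runs 5′ to 3′ from 250 bases before to 50 bases after the annotated start, and capitals mark matches on either strand, overlaps allowed, to CCGGAAG, the core bound by ETS factors such as GABP (NRF-2), to GCGCATG from the site of NRF1, to GATGGCG from the site of YY1, or to CCAAT, bound by NF-Y.
Cox6b2, chr7:4753045-4753344, strand -: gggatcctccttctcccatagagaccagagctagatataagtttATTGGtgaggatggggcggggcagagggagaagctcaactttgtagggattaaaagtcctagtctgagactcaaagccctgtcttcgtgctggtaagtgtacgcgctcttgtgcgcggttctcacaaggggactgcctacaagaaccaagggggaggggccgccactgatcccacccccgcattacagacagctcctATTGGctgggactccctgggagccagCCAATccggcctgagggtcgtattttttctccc
Cox6b1, chr7:30626065-30626364, strand -: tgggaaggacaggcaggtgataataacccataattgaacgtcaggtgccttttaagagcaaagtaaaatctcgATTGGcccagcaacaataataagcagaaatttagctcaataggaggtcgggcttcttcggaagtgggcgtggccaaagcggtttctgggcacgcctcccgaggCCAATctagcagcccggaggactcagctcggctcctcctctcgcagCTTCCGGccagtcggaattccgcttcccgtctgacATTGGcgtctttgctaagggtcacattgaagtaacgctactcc
Cox7b2, chr5:71548156-71548455, strand -: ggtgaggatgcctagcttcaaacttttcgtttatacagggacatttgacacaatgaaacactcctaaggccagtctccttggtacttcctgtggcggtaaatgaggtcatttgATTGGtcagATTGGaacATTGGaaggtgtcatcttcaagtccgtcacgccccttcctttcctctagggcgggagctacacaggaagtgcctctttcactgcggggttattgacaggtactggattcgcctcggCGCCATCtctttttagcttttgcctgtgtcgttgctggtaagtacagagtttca
Cox7b, chrX:106015450-106015749, strand +: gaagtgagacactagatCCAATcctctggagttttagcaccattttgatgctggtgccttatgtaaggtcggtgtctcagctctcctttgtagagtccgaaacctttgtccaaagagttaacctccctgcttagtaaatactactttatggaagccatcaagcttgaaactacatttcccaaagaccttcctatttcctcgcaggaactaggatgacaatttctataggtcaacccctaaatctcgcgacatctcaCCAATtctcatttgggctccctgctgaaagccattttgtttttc
CCAAT was found in all 4 windows, CCGGAAG in that of Cox6b1 alone, GATGGCG in that of Cox7b2 alone and GCGCATG in none. Over the 68 tested subunit genes with a window in the table, GCGCATG was in 13 (19.1%), CCGGAAG in 16 (23.5%), GATGGCG in 9 (13.2%) and CCAAT in 30 (44.1%). In the windows of all 27025 genes listed the shares were 4.04%, 9.12%, 3.66% and 37.9%. These are matches of letters, not measured binding.

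Of the 7 measured restricted forms, Cox6b2 and Cox7b2 included, 1 was higher and 4 were lower, against 21.2% higher and 29.9% lower over all genes. Their median log2 ratio was -0.61, while of the 8 broadly expressed partners 2 were higher and 0 lower, with a median of 0.12. Of these partners 6 were called higher with normexp and loess (median 0.27) and all 8 with the array median only (median 0.89). Cox4i2, a form of subunit IV known from lung and induced by low oxygen, had signals of 108 and 104 in the overexpression channel, against 198 and 277 in WT, a fall of 2.21-fold (-1.14 ± 0.38, limma adjusted p = 0.00205). Under the other scalings Cox4i2 fell less, with -0.76 for normexp and loess and -0.79 for the array median only. Its broadly expressed partner Cox4i1 had log2 ratios of -0.15 and 0.13, so the arrays disagreed in sign. Cox7a1, the heart and muscle form of subunit VIIa, had 9623 and 9694 in the overexpression channel, against 14041 and 15386 in WT, a fall of 1.52-fold (-0.61 ± 0.086, adjusted p = 0.00395). Its partner Cox7a2 had a log2 ratio of 0.24 ± 0.14 and was not called (adjusted p = 0.0935), but was called higher under both other scalings (0.32 and 0.84).

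Ndufa4l2, induced by hypoxia-inducible factor, is a paralogue of Ndufa4, whose product was first assigned to complex I and is now counted with complex IV. Ndufa4l2 had signals of 4370 and 3332 in the overexpression channel, against 6338 and 7817 in WT, a fall of 1.84-fold (-0.88 ± 0.49, limma adjusted p = 0.0090). The arrays agreed in direction but not closely in size, with -0.54 on replicate 1 and -1.23 on replicate 2. Ndufa4 had 0.23 ± 0.037 and was not called (adjusted p = 0.076), but was called higher under both other scalings (0.28 and 0.81). The muscle form Cox6a2 (0.24 ± 0.20) and the testis form Cox8c (0.064 ± 0.041) were not called either, and both had signals of at most 213 in any channel. The difference in log2 ratio between restricted and broadly expressed form was negative on both arrays for Cox4, Cox7a, Cox7b and Ndufa4, where its mean ran from -1.84 to -0.84, and these 4 means were also below 0 under both other scalings. For Cox6a and Cox8 it was positive on both arrays, with means of 0.23 ± 0.16 and 0.30 ± 0.18, but -0.90 and -0.50 with the array median only, and -0.11 for Cox6a with normexp and loess. For Cox6b the difference was 0.11 ± 0.18, within the spread between the arrays, and -0.012 and -0.30 under the other scalings. With 2 arrays these differences between genes were not tested.

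**Figure D3:**
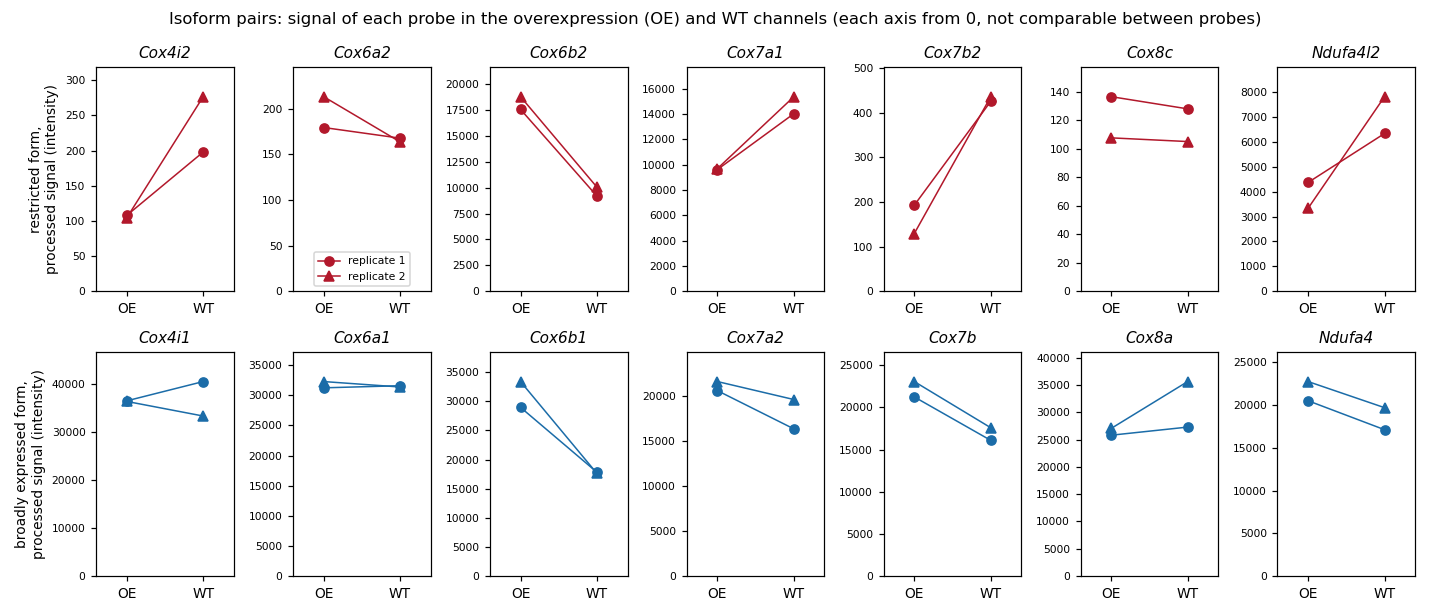
Processed signal (vertical axes, each from 0) of the restricted form (upper row) and of its broadly expressed partner (lower row) in the overexpression (OE) and WT channels, with a line for each array. The lines of Cox4i2, Cox7a1, Cox7b2 and Ndufa4l2 lie lower in OE on both arrays, and those of Cox6b2, Cox6b1 and Cox7b lie higher in OE on both.

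The other called gene of complex IV was Cox7c, a small subunit of the membrane part, with a log2 ratio of -0.42 ± 0.16 by its brightest probe (limma adjusted p = 0.019). Its other probes had 0.43 and -0.060, and the array median as the only scaling gave 0.24, so no direction is given for it. The broadly expressed Cox6a1 and Cox8a had 0.012 ± 0.040 and -0.24 ± 0.22, and Cox7a2l, whose product helps to join complexes III and IV, had -0.058 ± 0.22. None of these 3 was called with the processed signals, and all 3 were called higher with the array median only, Cox6a1 at 0.99, Cox8a at 0.60 and Cox7a2l at 0.60.

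In complex I, the entry point for NADH, 4 of 38 genes were higher and 9 lower (10.5% and 23.7%, against 21.2% and 29.9% over all genes). The median log2 ratio was -0.077 (0.41 with the array median only). The 7 core subunit genes, whose products carry the flavin and the iron-sulfur clusters, split: Ndufs1 rose, Ndufv1 fell, and the other 5 were not called. Ndufs1, which encodes the largest subunit, had signals of 22172 and 23758 in the overexpression channel, against 16417 and 17311 in WT (log2 ratio 0.45 ± 0.016, limma adjusted p = 0.010). Ndufv1, which encodes the NADH-binding flavoprotein, had 16886 and 18415 in the overexpression channel, against 22820 and 26091 in WT (-0.47 ± 0.048, adjusted p = 0.0087). The products of these genes sit beside each other in the NADH-oxidising arm. On neither gene did the processed signals of the channels overlap, a separation that was not counted over all genes. With the array median only, Ndufs1 was called higher at 0.98 and Ndufv1 was not called at 0.10. Among the core genes not called, Ndufs3 had -0.13, Ndufs7 0.0049, Ndufs8 0.060 and Ndufv2 -0.11.

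Among the accessory subunits of complex I, Ndufa10 and Ndufa13 were highest. Ndufa10 had signals of 23345 and 27231 in the overexpression channel, against 17869 and 15895 in WT, a log2 ratio of 0.58 ± 0.28 (limma adjusted p = 0.0115). Ndufa13, also known as GRIM-19, had 34595 and 37369 in the overexpression channel, against 23318 and 27754 in WT, a rise of 1.41-fold (0.499 ± 0.099, adjusted p = 0.0080). Both were also called higher under the other scalings, as was Ndufa11 at 0.43 ± 0.055 (adjusted p = 0.012). Ndufa9 fell by 0.50 on the log2 scale (adjusted p = 0.0076) and Ndufs4, a subunit whose loss causes a Leigh-like disease in mice, fell by 0.46 (adjusted p = 0.0098). With the array median only, Ndufa9 had -0.13 and Ndufs4 0.052, neither called. The remaining called genes of complex I, Ndufa7, Ndufb7, Ndufb9, Ndufa1 and Ndufb10, lay between -0.36 and -0.29, and with the array median only none of them was called lower and Ndufa7 and Ndufb7 were called higher.

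Complex II, which is also the succinate dehydrogenase of the citric acid cycle, had 2 of its 4 genes lower and 0 higher. Over all genes 29.9% were lower and 21.2% higher. Sdha, the flavoprotein gene, had signals of 12381 and 13594 in the overexpression channel, against 16973 and 19699 in WT (-0.495 ± 0.057, limma adjusted p = 0.0073). Sdhb, the iron-sulfur subunit gene, had 16896 and 18981 in the overexpression channel, against 21686 and 22232 in WT (-0.29 ± 0.093, adjusted p = 0.0445). By the probes used, in both catalytic subunit genes each processed overexpression signal lay below each WT signal, a separation that was not counted over all genes. The other probe of Sdhb had a log2 ratio of -0.15. Its overexpression signals of 11680 and 11741 overlapped those of WT, 11671 and 14489. The membrane anchor genes were not called, with Sdhc at 0.13 ± 0.049 and Sdhd at -0.16 ± 0.0048. Sdhb missed the threshold with normexp and loess (-0.20) and was called higher with the array median only (0.28), where Sdha had -0.13 without a call.

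Complex III, which passes electrons from ubiquinol to cytochrome c, had 1 of 9 genes called, against 51.1% of all genes. Uqcrfs1, the Rieske iron-sulfur protein gene, had signals of 4506 and 4538 in the overexpression channel, against 5888 and 6618 in WT, a fall of 1.38-fold (-0.47 ± 0.11, limma adjusted p = 0.011), and it was called lower under all 3 scalings. The other 8 genes, among them Cyc1 for cytochrome c1 and Uqcrc1 and Uqcrc2 for the core proteins, ranged from -0.23 to 0.21. The array median only called 7 genes of this complex higher and left Uqcrfs1 at -0.46.

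Complex V, the ATP synthase, had 4 of 17 genes higher and 2 lower (23.5% and 11.8%, against 21.2% and 29.9% over all genes). The higher ones all encode small subunits: Atp5k (subunit e), Atp5j2 (subunit f), Atp5md and Atp5e (subunit epsilon). Atp5j2 had signals of 25948 and 27369 in the overexpression channel, against 19168 and 21612 in WT (0.39 ± 0.068, limma adjusted p = 0.017), and its second probe had 0.27. Atp5e had 0.34 ± 0.0027 (adjusted p = 0.024) and Atp5md 0.33 ± 0.084 (adjusted p = 0.030), each on 1 probe. Atp5k had 0.52 ± 0.058 (adjusted p = 0.0060), but its other probe had -0.080, and pseudogenes in the RefSeq table are named after it. Atp5a1, which encodes the alpha subunit of the catalytic head, had 15138 and 15412 in the overexpression channel, against 20895 and 23528 in WT, and fell 1.45-fold (-0.54 ± 0.10, adjusted p = 0.0063; -0.045 without a call with the array median only). Atp5b, which encodes the catalytic beta subunit, had 0.015 ± 0.16 with opposite signs on the arrays. Atp5h had -0.41 ± 0.033 (adjusted p = 0.013), 0.10 by its other probe and 0.59 with the array median only, so no direction is given for it.

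Probes of a gene did not always agree. Of the 85 subunit genes 22 had more than 1 probe above background. Their probes spanned a median of 0.24 in log2 ratio, 10 of the 22 genes had probes of different sign, and in 6 the span exceeded 0.5, the widest being that of Cox7c at 0.84. Uqcr10 of complex III had 0.21 by the probe used and -0.502 and -0.39 by the others. The RefSeq table names a pseudogene after 10 of the tested genes, Atp5c1, Atp5k, Atp5l, Atp5pb, Cox5b, Cox7c, Ndufa12, Ndufab1, Ndufs5 and Uqcrh, and whether their probes also bind such copies is not known here. Cox6b1, Cox6b2, Cox7b, Cox7b2, Cox4i2, Cox7a1, Ndufa4l2, Ndufs1, Ndufv1, Ndufa10, Ndufa13, Sdha, Uqcrfs1 and Atp5a1 had 1 probe above background each.

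Among genes that assemble and feed the chain, lower calls outnumbered higher ones. Of 95 tested genes in 7 lists of assembly factors, electron carriers, citric acid cycle enzymes and regulators of mitochondrial biogenesis, 8 were higher and 33 lower, with a median log2 ratio of -0.18 (10 higher and 40 lower with normexp and loess, and 24 and 23 with the array median only). Beside these stand the 11 higher and 18 lower of the 85 subunit genes, and 21.2% higher and 29.9% lower over all genes. The difference between the groups was not tested, since genes are not replicates.

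Assembly factors of complex I were higher for 1 and lower for 5 of 15 genes. Beside this and each count of assembly factors below stand 21.2% higher and 29.9% lower over all genes. Ndufaf8 (-0.78 ± 0.23), Nubpl (-0.72 ± 0.13), which delivers iron-sulfur clusters, Ecsit (-0.65 ± 0.12) and Tmem126b (-0.55 ± 0.088) led the falls. Of the 8 Ndufaf genes themselves 0 were higher and 2, Ndufaf8 and Ndufaf7, were lower, with a median of -0.15 against -0.077 for the complex I subunits. In the list for complexes II and III, 1 of 10 genes was higher and 2 were lower, with Lyrm7 at 0.66 ± 0.021, Ttc19 at -0.60 ± 0.12 and Sdhaf3 at -0.40 ± 0.17. Lyrm7 was dim, with signals of 91 and 116 in the overexpression channel, against 58 and 73 in WT. It had 0.34 under both other scalings. For complex IV, 3 of 19 were higher and 7 lower. Coa6 (-0.96 ± 0.027) and Coa3 (-0.81 ± 0.0091) fell, as did Taco1 (-0.92 ± 0.10), the translational activator of the mitochondrially encoded COX1 subunit, while Cox20 (0.92 ± 0.011) rose. All 3 factors listed for complex V were lower, with Atpaf2 at -0.56 ± 0.12 and Tmem70 at -0.38 ± 0.060. Atpaf1 was 1.65-fold lower by the processed signals. The overexpression signal of Atpaf1 was not well above background, so this fold is uncertain and open to dye bias. With normexp and loess, and with the array median only, Atpaf1 had a log2 ratio of -0.35, a smaller difference, and it was still called lower. With the array median only, Ecsit (-0.14), Coa3 (-0.19) and Tmem70 (-0.12) kept their sign without a call.

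Among electron carriers 1 of 19 genes was higher and 7 lower. Here and for the lists that follow, the shares over all genes were 21.2% higher and 29.9% lower. The testis cytochrome c gene Cyct had signals of 3892 and 3360 in the overexpression channel, against 25493 and 30530 in WT, the largest fall of these lists (-2.95 ± 0.33, limma adjusted p = 1.3e-04), while the somatic Cycs was not called (0.15). Coq8a, of ubiquinone synthesis, rose (1.04 ± 0.16), and Coq3 (-0.55 ± 0.19) and Etfdh (-0.59 ± 0.0315), which passes electrons from fatty acid oxidation to ubiquinone, fell. In the citric acid cycle 1 of 14 genes was higher and 5 lower, led by Ogdh (-0.60 ± 0.044) and Cs (-0.38 ± 0.014), which had 0.041 and 0.13 with the array median only. Of 15 regulators 1 was higher and 4 were lower. Ppargc1a, the coactivator that drives mitochondrial biogenesis in muscle and brown fat, was 3.84-fold lower by the processed signals (limma adjusted p = 1.6e-04). Its overexpression signal was not well above background, so this fold is uncertain and open to dye bias. The log2 ratio of Ppargc1a was -0.78 with normexp and loess and -0.79 with the array median only. These are smaller differences, and Ppargc1a was called lower by both. Its relative Ppargc1b rose (0.49 ± 0.085). Tfb1m (-0.60 ± 0.061) and the mitochondrial RNA polymerase gene Polrmt (-0.30 ± 0.029) fell, Polrmt without a call when only the array median was used (-0.198). Gabpa, a GABP gene, was also lower (-0.28 ± 0.078), and was called lower under all 3 scalings. Nrf1, Tfam and Esrra were not called, but Nrf1 (0.27 ± 0.13) was called higher under both other scalings (0.26 and 0.34).

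Genes of chromosome 11 were lower as a whole, with a median log2 ratio of -0.51 over 1342 genes, 9.46% called higher and 66.9% lower. Of the 10 pathway genes there 1 was higher and 8 were lower, with a median of -0.65. These 8, named for their position after their values were seen, were Ndufaf8, Ttc19, Cox10, Cox11, Coa3, Taco1, Atpaf2 and Ogdh, and Lyrm7 was the 1 that rose. The 4 subunit genes on that chromosome, Uqcr10, Uqcrq, Atp5g1 and Atp5h, had 0 higher and 1 lower, with a median of -0.17 that was -0.080 with normexp and loess and 0.60 with the array median only. Chromosome 1 leaned the other way, with a median of 0.25 over 910 genes, 44.5% called higher and 12.1% lower. Of the 6 subunit genes there, 2 were higher (Ndufs1 and Ndufa10) and 0 lower, and of the 8 other pathway genes 4 were higher, among them Coq8a and Cox20, and 1 lower. On chromosome 8, with a median of -0.25 and 46.9% of its 850 genes lower, Ndufb7 was lower (-0.34), Ndufa13 higher (0.499) and Cox4i1 not called. Without chromosomes 1, 8 and 11, 8 of 72 subunit genes were higher and 16 lower, against 2765 and 3400 of all 12975 genes there. Without chromosomes 1 and 11, but with chromosome 8 kept, 3 of 77 other pathway genes were higher and 24 lower. Their median was -0.18, the same as that of all 95. The shares over all genes, with chromosomes 1 and 11 included and so not a matched set, were 21.2% higher and 29.9% lower. The part of these chromosome-wide shifts in the values of single genes was not tested.

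**Figure D4:**
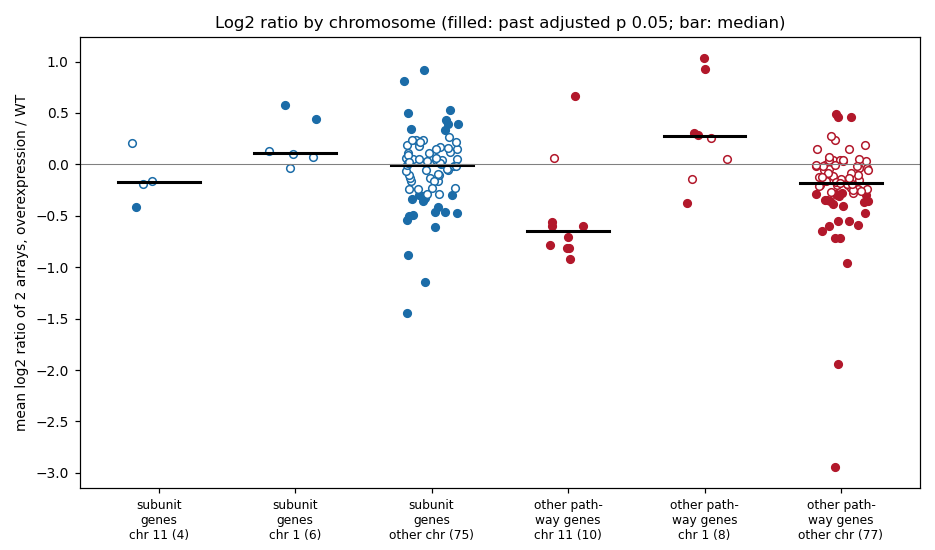
Mean log2 ratio of overexpression over WT (vertical axis) of subunit genes and of the other pathway genes (horizontal axis), split by chromosome, with the number of genes in brackets, filled points past limma's adjusted p of 0.05 and a bar at the median. Pathway genes on chromosome 11 have a median of -0.65 and those on chromosome 1 a median of 0.27, against -0.17 and 0.12 for the subunit genes on these chromosomes.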

How the data were processed

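Per the file headers, the authors read the 2 arrays with Agilent Feature Extraction 11.5.1.1 on a grid built on mm9, and each array has 62976 spots, 3671 of them controls. The deposited processed signals are intensity values from which the background had been taken and whose dyes had been balanced by a linear and a lowess step, and the deposited median signals are raw intensity values. A deposited log10 ratio, Cy5 over Cy3, is made from those processed signals. The deposited series table holds log2 ratios of WT over overexpression: set against the scanner ratios, both of its columns correlated at -1 with a slope of -1, its column medians are -0.0074 and 0.062, and whether it was centred further stays unknown.

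Here log2 ratios of overexpression over WT were taken from the processed signals. Control spots and outlier-marked spots (269 and 313) were left out, 0 spots were saturated, and repeat spots were averaged per probe. Gene symbols came through the probe's accession for 26762 of 55681 probes, which were looked up in a RefSeq table of GRCm38.p6, which served for names and chromosomes. A gene was its brightest probe, kept if at least 1 channel was well above background on both arrays. Ratios were tested against 0 with limma 3.58.1 in R 4.3.3 (lmFit, eBayes, two-sided, Benjamini-Hochberg over 16077 genes), with 1 residual and 4.59 prior degrees of freedom and a median standard error of 0.094. The fit was run on simulated data in which few genes changed and no chromosome was shifted. The arrays differ from that setting, so the run does not check the calls made here. Both arrays lie on 1 slide, so no slide could be used as a block, and the number of arrays limits the precision.

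Named were the changed members of each complex by size (up to 6), members at least 1.5-fold changed on both arrays, the complex II genes, complex I core genes, isoform pairs, and up to 4 changed genes of each pathway list; genes beyond these were named after their values were seen, and 1 gene is counted but not reported here. The members and lists were chosen with earlier results of these data known, and the 7-letter forms of the NRF1 and YY1 motifs after longer forms had been counted. Alternatives were normexp (offset 50) with loess or with median centring, the series table, the mean over probes, other filters on dim probes, outlier-marked spots kept, a trended prior, each array alone and, added after seeing the data, the other probes of a gene.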

Additional observations from a re-analysis of the deposited data

How the results depend on the processing

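With the deposited series table, with outlier-marked spots kept and with only probes well above background in both channels (Atpaf1 and Ppargc1a then have no value), no count, median or named gene changed its direction or its side of the threshold. Normexp and loess gave 19 higher members over all complexes, with 1 in complex III and 7 in complex IV, 1 lower in complex II and 1 in complex V, and medians of -0.17 in complex II and 0.19 in complex III; Ndufv2 (0.081) and Cox4i1 (0.25) turned their sign. Normexp with median centring gave 61 higher and 5 lower members (27 and 1 in complex I, 3 and 0 in II, 7 higher in III, 11 higher in IV, 13 and 0 in V), 24 higher pathway genes, and medians of 0.41, 0.34, 0.77, 0.60 and 0.50 in complexes I to V. Under it the sign turned for Ndufv1 (0.10), Ndufs4 (0.052), Sdhb (0.28), Cox7c (0.24), Atp5h (0.59), Sdhd (0.44), Ndufs3 (0.30), Ndufv2 (0.62), Cox4i1 (1.11), Cox7a2l (0.60), Cox8a (0.60), Ogdh (0.041) and Cs (0.13). That scaling keeps the trend of the ratio with brightness, with a median of 0.53 in the brightest 10% of genes. The mean over probes left 1 lower member in complex II and 1 in complex V, moved the complex III median to 0.032 and turned Cox7a2l to 0.0090. Without the filter on dim probes 5 complex I members and 1 complex II member were lower. A trended prior called 17 higher members, with 1 higher and 2 lower in complex III. Other probes turned Atp5h (0.10), Atp5k (-0.080) and Cox7c (0.43). Without replicate 1 or 2 no test is possible; the complex III median was 0.026 to 0.035 and the complex V median 0.025 to 0.13. The cause of these changes was not tested. Each ratio pairs both groups within an array, so the test of the ratios against 0 is already a paired analysis. All 85 tested members were well above background in both channels on both arrays.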
